A study of Mus musculus with 32 samples.

Results

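Neurons turn a burst of activity into new gene expression within minutes to hours. Calcium that enters on depolarization activates kinases that phosphorylate the DNA-binding proteins CREB and SRF with its partners, and these switch on immediate early genes without new protein synthesis. Many of the products are themselves transcription factors, which then act on a second set of genes for synapses, secreted peptides and feedback control. The comparison described here is the RNA response of the soma of wild-type mouse hippocampal neurons to 2 h of depolarization with KCl. Its members were the 24060 genes, of 55573 in the count table, that averaged 10 counts or more over 4 RNA-seq libraries, 2 from KCl-treated and 2 from WT soma without KCl (Ctrl).

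Neurons of neonate C57BL/6 mice were grown for 15 days on porous membrane inserts, through which neurites grow, and the soma fraction was scraped from the top of the membrane. All groups, WT included, were transduced on day 7 with an AAV that expresses Cre-P2A-dTomato under the neuronal hSyn promoter, and all were silenced on day 14 for 16 h with 1 µM tetrodotoxin, a sodium channel blocker, and 50 µM D-AP5, an NMDA receptor blocker. KCl soma then received 55 mM KCl for 2 h, so that Ctrl stands for silenced and not for spontaneously active neurons. The 16 RNA-seq libraries of the series also cover neurites, and neurons of Mettl3Flox/Flox mice in which the same Cre removes the m6A methyltransferase Mettl3 (Mettl3 KO). Each replicate came from the pooled pups of a separate litter, and the top of a membrane can also hold neurites that did not pass the pores. The 4 libraries of WT soma, each made from 50 ng of total RNA, held between 54397025 and 71394235 counts.

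Genes of the neuronal marker list were abundant in the soma libraries. None of the 10 changed by at least 2-fold at an adjusted p of at most 0.05, where 4.21% of all genes tested rose and 3.65% fell. Below 2-fold, 2 were higher and 1 lower at that p. In CPM (counts scaled to a common library size), their summed level was 4124 and 4325 CPM in Ctrl and 4738 and 4713 CPM after KCl, and Snap25, a SNARE protein of the synapse, was at 896 and 1022 CPM in Ctrl and 1257 and 1009 CPM after KCl. Markers of other cells were present as well: the summed level of 11 astrocyte markers was 1299.8 and 1326 CPM in Ctrl and 1725 and 1793 CPM after KCl, that of 11 fibroblast and vascular markers 49.7 and 44.1 CPM in Ctrl and 76.1 and 75.2 CPM after KCl, and that of 6 microglia markers 12.3 and 11.2 CPM in Ctrl and 17.8 and 16.3 CPM after KCl. Those 3 sums, and that of the neuronal markers, were higher in both KCl libraries than in both Ctrl libraries, while that of 6 oligodendrocyte markers, 62.6 and 71.6 CPM in Ctrl and 63.5 and 60.4 CPM after KCl, was not. Among the members, the transcription factor Sox9 (log2 change 2.02 ± 0.19 (SE)), the collagen Col1a1 (1.16 ± 0.28) and vitronectin, Vtn (1.60 ± 0.24), passed the test (Col1a1 did not without Ctrl replicate 2, at 0.83, or without KCl replicate 2, at 0.84), while Gfap, with 547 and 559 CPM in Ctrl and 694 and 646 CPM after KCl, did not (adjusted p = 0.159). Called members made up 9.09% of the astrocyte and 18.2% of the fibroblast and vascular markers, beside 4.21% of all genes tested that rose. In bulk RNA, more cells of a type and more RNA per cell cannot be told apart, and the part of these cells in the responses below was not tested.

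In all, 1014 genes rose and 877 fell by at least 2-fold at an adjusted p of at most 0.05 (edgeR quasi-likelihood test, 2 against 2 libraries), which is 4.21% and 3.65% of the genes tested. The rises reached further: 427 genes rose and 181 fell by at least 4-fold, and 81 rose by at least 16-fold against 6 that fell by as much. Among genes averaging 100 counts or more, 593 rose and 476 fell, and for each of them both KCl libraries lay outside the range of the Ctrl libraries. These genes were called on the same 4 libraries, so that separation largely follows from the call and is no further evidence. The median log2 change over all 24060 genes was 0.0088. The KCl libraries differed more from each other than the Ctrl libraries did, with an SD over genes of the log2 difference between replicates of 0.401 against 0.192. Of the 593 genes that rose, 406 were higher in KCl replicate 2 than in KCl replicate 1. Leaving out KCl replicate 2 gave 965 higher and 1495 lower genes, and leaving out KCl replicate 1 gave 1479 and 960. The p-values measure the spread between duplicates, and PCR reads are not independent molecules.

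**Figure D1:**
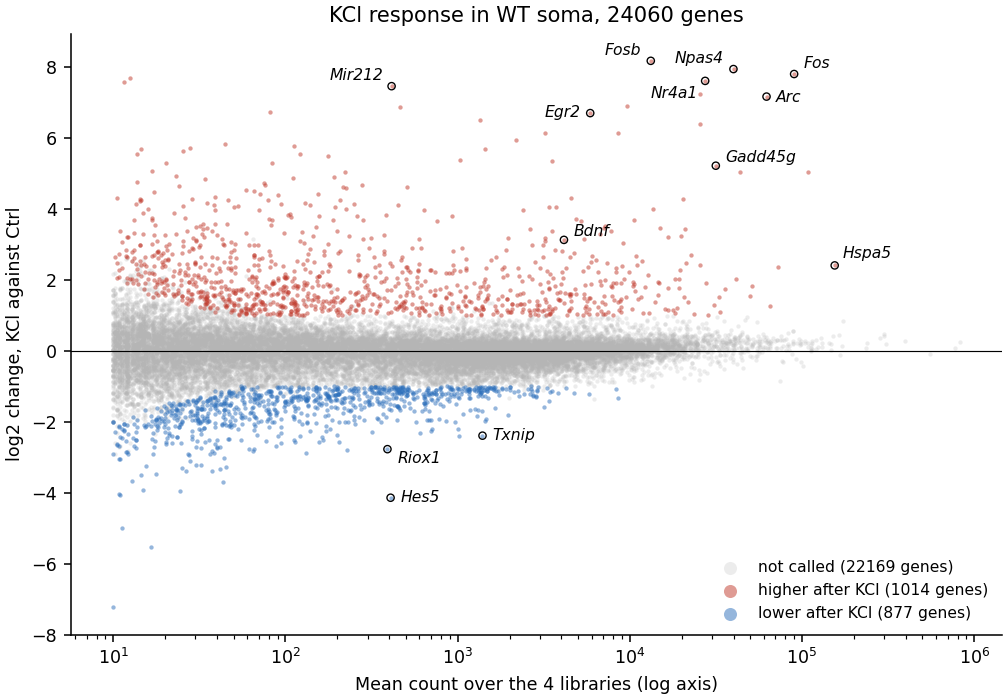
Log2 change of each gene in WT soma, KCl against Ctrl, over its mean count in the 4 libraries (log axis), with called genes in color. The 1014 genes that rose extend to a log2 change of 8.17 (Fosb), while Hes5, at -4.14, is the largest fall among genes averaging 100 counts or more.

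The immediate early transcription factors led the response. Of 30 such genes in the list, 26 rose (86.7%, beside 4.21% of all genes tested) and none fell by the 2-fold rule. Their median log2 change was 3.69. Fos (chr12:85473890-85477273, plus strand), the classical partner of Jun in the AP-1 complex, was at 13.9 and 13.4 CPM in Ctrl and 3255 and 2844 CPM after KCl. Npas4 (chr19:4984355-4990316, minus strand), a factor that neurons use in response to calcium influx, was at 5.42 and 5.09 CPM in Ctrl and 879 and 1707 CPM after KCl. The level of Fosb, a close relative of Fos, was 1.24 and 1.78 CPM in Ctrl and 340.1 and 527 CPM after KCl. All KCl libraries were above all Ctrl libraries for these 3 genes, and Npas4 and Fosb were both higher in KCl replicate 2, while Fos was slightly higher in replicate 1. Their log2 changes were 7.80 ± 0.16 (SE) for Fos (adjusted p = 3.65e-07), 7.94 ± 0.35 for Npas4 (9.94e-06) and 8.17 ± 0.31 for Fosb (4.45e-06), or 223-fold, 246-fold and 289-fold.

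Changes of similar size were seen for orphan nuclear receptors of the Nr4a group. Nr4a1 stood at 4.82 and 4.51 CPM in Ctrl and 841 and 980.5 CPM after KCl and rose by 7.61 ± 0.17 on the log2 scale (adjusted p = 4.48e-07). Nr4a2, at 5.54 and 5.63 CPM in Ctrl and 739.7 and 944 CPM after KCl, rose by 7.24 ± 0.19 (5.76e-07), and Nr4a3 by 3.66 ± 0.32. Atf3, a stress-responsive bZIP factor, was at 2.75 and 2.68 CPM in Ctrl and 332 and 316 CPM after KCl and had a log2 change of 6.90 ± 0.16. The zinc finger factor Egr2, at 2.22 and 1.56 CPM in Ctrl and 208 and 188 CPM after KCl, changed by 6.70 ± 0.22, and its relative Egr1 by 5.04 ± 0.23. Replicates of each treatment lay close together for Nr4a1, Atf3 and Egr2, far apart from the other treatment.

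The members of one family did not move alike in size. Within AP-1, Junb rose by 5.04 ± 0.18 and Fosl2 by 3.51 ± 0.33 on the log2 scale, whereas Jun rose by 2.36 ± 0.12 and Jund by 1.92 ± 0.19. Klf4 (log2 change 6.15 ± 0.22) and Klf6 (2.66 ± 0.19) rose, but Klf10, with 48.2 and 53.9 CPM in Ctrl and 26.5 and 25.2 CPM after KCl, had a change of -0.98 ± 0.14 (adjusted p = 0.00281), just under the 2-fold rule. Ier5 (0.87 ± 0.19, adjusted p = 0.0192), Klf2 (0.76 ± 0.46, 0.337) and Myc (0.57 ± 0.17, 0.0651) were the other members that did not pass. Without Ctrl replicate 1, Klf10 was called lower at a log2 change of -1.07.

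Per kilobase of exon, Fos went from rank 7490 among the 24060 genes in Ctrl to rank 19 after KCl, at 5.81 and 1296 CPM per kb. Junb reached rank 16 from 1435, and Arc rank 48 from 8439. Fosb, despite its larger fold, only reached rank 1060, from 19715. The order of the folds and the order of the levels after KCl thus differed between these genes.

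**Figure D2:**
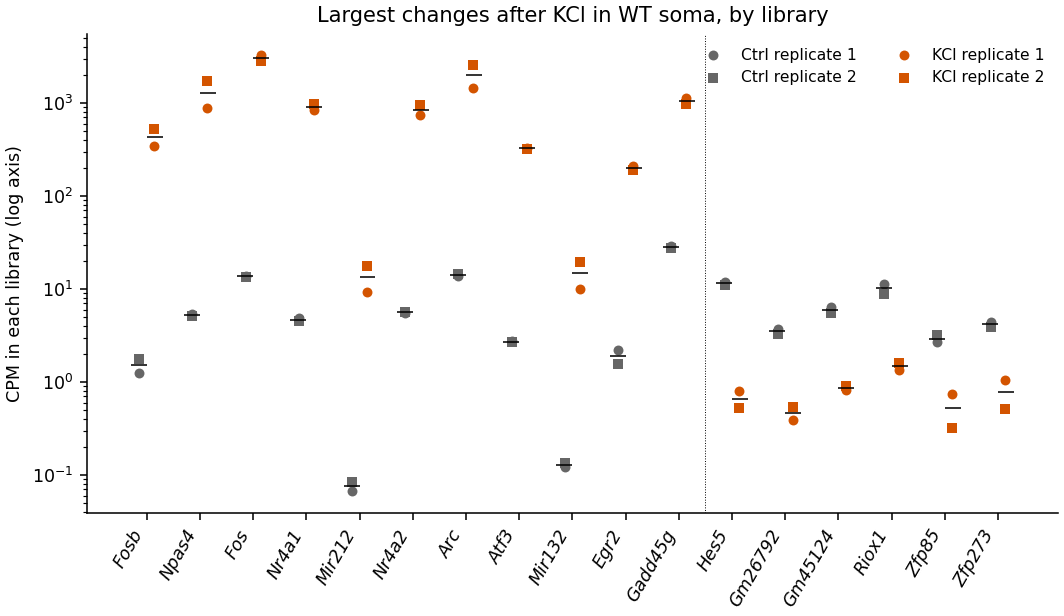
CPM (log axis) in each of the 4 WT soma libraries for genes with the largest changes and for Gadd45g, with circles for replicate 1, squares for replicate 2 and black lines for group means. Left of the dotted line, both KCl libraries of each gene lie above both Ctrl libraries, and right of it both lie below.

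Promoter sequence of some of these genes is shown because it carries letters that the activity-regulated factors are known to bind. The cAMP response element (CRE), bound by CREB, is TGACGTCA, and its core, TGACG, lies within it. The CArG box is bound by SRF. Windows are from RefSeq (GRCm38.p6), 250 bases before to 50 after a start site, 5′ to 3′ on the gene's strand, with CRE cores on either strand and CArG boxes in capitals:
Npas4: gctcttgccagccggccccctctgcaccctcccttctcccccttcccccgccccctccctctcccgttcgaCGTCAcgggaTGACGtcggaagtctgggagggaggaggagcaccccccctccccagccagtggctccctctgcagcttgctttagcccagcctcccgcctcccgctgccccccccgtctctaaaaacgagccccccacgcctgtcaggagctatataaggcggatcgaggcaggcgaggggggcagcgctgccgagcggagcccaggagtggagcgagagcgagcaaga
Fos: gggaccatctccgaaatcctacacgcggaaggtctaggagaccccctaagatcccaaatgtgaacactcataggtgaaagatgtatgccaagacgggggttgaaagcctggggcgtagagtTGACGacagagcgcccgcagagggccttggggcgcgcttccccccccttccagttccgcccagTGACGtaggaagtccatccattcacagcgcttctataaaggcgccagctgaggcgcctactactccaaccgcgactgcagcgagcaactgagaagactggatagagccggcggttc
Dusp1: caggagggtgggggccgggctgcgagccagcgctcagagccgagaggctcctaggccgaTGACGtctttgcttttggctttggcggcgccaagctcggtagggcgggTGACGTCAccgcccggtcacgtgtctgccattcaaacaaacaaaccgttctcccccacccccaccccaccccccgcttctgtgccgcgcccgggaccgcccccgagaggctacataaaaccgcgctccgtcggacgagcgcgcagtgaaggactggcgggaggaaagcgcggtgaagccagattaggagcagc
Egr2: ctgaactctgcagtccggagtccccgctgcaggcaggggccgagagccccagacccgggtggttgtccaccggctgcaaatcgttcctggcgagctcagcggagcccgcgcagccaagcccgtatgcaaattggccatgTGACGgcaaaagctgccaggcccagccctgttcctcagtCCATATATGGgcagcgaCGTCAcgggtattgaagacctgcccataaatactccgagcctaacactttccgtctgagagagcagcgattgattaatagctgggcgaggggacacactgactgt
The first window is chr19:4989922-4990221 (minus strand), the second chr12:85473640-85473939 (plus), the third chr17:26508423-26508722 (minus), and the last, 1 of 5 for Egr2, chr10:67537619-67537918 (plus). Npas4 and Fos have 2 cores each and no full CRE, Dusp1 has a full CRE beginning 143 bases before the start, and Egr2 has a CArG box between 2 cores. These windows were picked because they hold such letters. The window of Gadd45g and 1 other window of Egr2 hold neither a core nor a CArG box. The core TGACG occurs in 20.8% of all 32856 RefSeq windows and in 28.1% of the 15602 windows of protein-coding genes tested. It was in 44.7% of the 562 windows of genes that rose, in 21 of 33 windows (63.6%) of genes averaging 100 counts or more that rose at least 16-fold, in 27.6% of windows of genes not called and in 23.4% of the 418 windows of genes that fell. The full CRE was found in 1.79% of all windows, 2.75% of those of tested genes, 8.01% of those of genes that rose, 15.2% of those that rose at least 16-fold and 2.15% of those that fell. For the CArG box the same shares were 1.63%, 1.33%, 3.2%, 15.2% and 1.44%, and for the AP-1 letters TGANTCA 7.81%, 5.48%, 8.54%, 6.06% and 4.07%. The 15.2% for the CArG box is 5 of 33 windows, which belong to 26 genes. Most of those 5 are windows of Egr2 alone, and most of these overlap and hold the same CCATATATGG site. Of 15885 protein-coding genes tested 12265 matched a window, several windows can belong to 1 gene, and the motifs were looked for after the changes had been seen.

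Genes for synaptic and cytoskeletal effectors came next, with 11 of 20 higher (55.0%, beside 4.21% of all genes tested) and none lower. The median log2 change was 1.20. Arc (chr15:74669083-74672570, minus strand), a capsid-forming protein that drives removal of AMPA receptors, was at 13.8 and 14.3 CPM in Ctrl and 1445 and 2586 CPM after KCl. Both KCl libraries were far above Ctrl, replicate 2 higher, and the log2 change was 7.16 ± 0.31 (adjusted p = 8.23e-06). Homer1, a postsynaptic scaffold with a short activity-induced isoform, was at 20.6 and 18.4 CPM in Ctrl and 101 and 165 CPM after KCl and rose by 2.77 ± 0.23. The GTPase Arl5b rose by 3.46 ± 0.17, the protease tPA, encoded by Plat, by 2.23 ± 0.19, cyclooxygenase 2, Ptgs2, by 2.82 ± 0.25, and the protocadherin Pcdh8 by 2.47 ± 0.34. Rheb, an activator of mTOR, was at 192 and 189 CPM in Ctrl and 320.3 and 318 CPM after KCl, a change of 0.74 ± 0.12 that passed the p (adjusted p = 0.0055) but not the 2-fold rule. Nptx1, a pentraxin that gathers AMPA receptors, was at 261 and 303 CPM in Ctrl and 173 and 365 CPM after KCl and its KCl libraries lay on both sides of Ctrl (adjusted p = 0.912), while its relative Nptx2 rose by 1.4 ± 0.24.

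Among 30 secreted peptides, growth factors and their processing enzymes, 9 rose and 3 fell, with a median of 0.46. Bdnf, the neurotrophin that acts through TrkB, was at 14.1 and 14.2 CPM in Ctrl and 121 and 126 CPM after KCl and rose by 3.13 ± 0.14 (adjusted p = 9.17e-06). The prohormone convertase Pcsk1, at 7.23 and 7.13 CPM in Ctrl and 118 and 166 CPM after KCl, rose by 4.31 ± 0.20, and the granule proteins Vgf and Scg2 by 2.15 ± 0.43 and 1.19 ± 0.13. For Vgf the KCl libraries were at 158 and 493 CPM, a 3-fold gap between replicates. In the other direction, the neurotrophin Ntf3, at 38.3 and 38.3 CPM in Ctrl and 15.1 and 10.1 CPM after KCl, fell by 1.61 ± 0.20 on the log2 scale, and Inhbb, a subunit of activin B, at 7.11 and 6.53 CPM in Ctrl and 1.87 and 1.70 CPM after KCl, by 1.94 ± 0.19, while Inhba, the subunit of activin A, rose by 1.5 ± 0.30. The cytokine Lif was at 0.735 and 0.916 CPM in Ctrl and 0.193 and 0.226 CPM after KCl and fell by 1.96 ± 0.35 (adjusted p = 0.0093). The most abundant members, Cpe (-0.42 ± 0.23) and Chga (0.45 ± 0.21), did not pass.

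Genes that restrain MAP kinase and G protein signals rose as well. Of 29 genes of this list that were tested, 15 rose (51.7%) and 1 fell (3.45%), beside 4.21% and 3.65% of all genes tested. The median was 1.08. Dusp1, a phosphatase of MAP kinases, was at 10 and 10.6 CPM in Ctrl and 923 and 807 CPM after KCl, a change of 6.39 ± 0.16 (adjusted p = 5.55e-07). The pseudokinase Trib1 was at 2.73 and 2.81 CPM in Ctrl and 85.9 and 140.4 CPM after KCl and rose by 5.35 ± 0.26. Gem, a small GTPase that inhibits voltage-gated calcium channels, rose by 4.15 ± 0.25, its relatives Rrad and Rem2 by 4.12 ± 0.26 and 1.91 ± 0.17, and Rgs2, which accelerates GTP hydrolysis by G proteins, by 3.38 ± 0.16. Dusp2 fell, with 1.91 and 2.85 CPM in Ctrl and 0.925 and 0.541 CPM after KCl and a change of -1.71 ± 0.33 (adjusted p = 0.0119). Dusp8 (0.75 ± 0.15) and Dusp3 (0.10 ± 0.13), the most abundant members that did not pass, and Dusp7 (-0.99 ± 0.22, adjusted p = 0.0204) are phosphatases of the same family. Without either KCl library 2 genes of this list fell.

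Of 20 kinases and growth arrest factors, 8 rose (40.0%, beside 4.21% of all genes tested) and none fell (median 0.63). Gadd45g (chr13:51846678-51848468, plus strand), a growth arrest protein linked to DNA demethylation, was at 28.7 and 27.5 CPM in Ctrl and 1119.9 and 968 CPM after KCl and rose by 5.22 ± 0.15 (adjusted p = 1.01e-06). Gadd45b rose by 3.15 ± 0.15, but Gadd45a had a change of -0.76 ± 0.20 (adjusted p = 0.0377). The kinase Pim1, at 0.721 and 0.849 CPM in Ctrl and 21.1 and 43.7 CPM after KCl, rose by 5.37 ± 0.38, and Plk2, which acts in the scaling of synapses, by 2.03 ± 0.12. Cdkn1a (0.54 ± 0.17) and Dclk1 (0.57 ± 0.16) did not pass.

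Stress and metabolic genes were split. In the list for the integrated stress and unfolded protein response 6 of 22 rose (27.3%, beside 4.21% of all genes tested). None fell and the median was 0.47. The chaperone Hspa5 (BiP), already at 830.4 and 789 CPM in Ctrl, reached 4201 and 4384 CPM after KCl, a change of 2.41 ± 0.11 (adjusted p = 1.03e-05). Ppp1r15a, the phosphatase subunit that reverses phosphorylation of eIF2α, rose by 3.22 ± 0.18, Atf4 by 2.48 ± 0.14 and Herpud1 by 2.02 ± 0.13, whereas the endoplasmic reticulum chaperones Calr (0.27 ± 0.11, adjusted p = 0.164) and Hsp90b1 (0.43 ± 0.13, 0.0625) did not pass, nor did Ddit3 (0.14 ± 0.14). Of 19 heat shock genes 5 rose (26.3%), led by Dnajb1 (1.94 ± 0.14). Hspa1b (1.4 ± 0.15) and Hspa1a (1.37 ± 0.15) also rose, and since these near-identical copies share reads that were counted at every place they map, their values are not independent. Of 22 genes of cholesterol synthesis and uptake 8 rose (36.4%), none fell and the median was 0.82. They included Cyp51 (2.27 ± 0.13), Idi1, at 52.3 and 63.7 CPM in Ctrl and 345 and 274 CPM after KCl (2.42 ± 0.17), and Insig1 (1.94 ± 0.16), and 6 more had an adjusted p of at most 0.05 below 2-fold, among them Hmgcs1 (0.87 ± 0.15).

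Of the list for glycolysis and glucose uptake, 2 of 23 genes rose (8.7%, beside 4.21% of all genes tested) and none fell. The glucose transporters Slc2a1, at 48.4 and 48.4 CPM in Ctrl and 229.9 and 223 CPM after KCl, and Slc2a3, at 359.5 and 373 CPM in Ctrl and 1193 and 1408 CPM after KCl, rose by 2.23 ± 0.13 and 1.83 ± 0.13. None of the other 21 genes of that list passed, with Aldoa at 0.051 ± 0.13 and Eno1 at 0.10 ± 0.12, and the median was 0.099.

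The circadian clock list held 4 genes that rose and 2 that fell of 20. Per1, at 21.2 and 24.3 CPM in Ctrl and 69.2 and 158 CPM after KCl, and Per2 rose by 2.32 ± 0.33 and 1.66 ± 0.22, Cry2 by 1.37 ± 0.18 and Ciart by 1.19 ± 0.18. Per and Cry proteins are repressors of the clock. Dbp, an output gene of the clock, was at 21.9 and 14.8 CPM in Ctrl and 3.05 and 6.62 CPM after KCl and fell by 1.92 ± 0.34, and Bhlhe40 by 1.10 ± 0.14. The activators Clock (-0.27 ± 0.13) and Arntl (-0.24 ± 0.14) did not pass. Without KCl replicate 1 the change of Ciart was 0.95, under the 2-fold rule.

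Hes5 had the largest fall among genes averaging 100 counts or more. Hes5 and Hes1 are repressors that Notch switches on through the DNA-binding protein RBPJ, and Id proteins block bHLH factors. Hes5 (chr4:154960923-154962371, plus strand) was at 11.9 and 11.1 CPM in Ctrl and 0.790 and 0.526 CPM after KCl, a change of -4.14 ± 0.23 (adjusted p = 3.31e-05). Both KCl libraries were more than 10-fold below both Ctrl libraries. Dll1, a Notch ligand, was at 18.9 and 15.6 CPM in Ctrl and 3.72 and 3.53 CPM after KCl and fell by 2.25 ± 0.17, and the ligand Jag2 and Hes1 by 1.17 ± 0.14 and 1.55 ± 0.26. Of the 22 genes of this list these 4 fell and Id1 (1.82 ± 0.27) and Id2 (1.03 ± 0.14) rose, and the median was -0.079. The shares were 18.2% lower and 9.09% higher, beside 3.65% and 4.21% of all genes tested. The receptor Notch1 (-0.17 ± 0.23), Rbpj itself (0.045 ± 0.15), Hes6 (-0.30 ± 0.13) and Hey1 (-0.31 ± 0.13) did not pass. Id2 was below 2-fold without KCl replicate 1, at 0.90. Hes5 is also known from progenitors and glia, and the part of these cells in its fall was not tested. None of the 11 astrocyte and 10 progenitor markers fell, beside 3.65% of all genes tested. The summed level of the progenitor markers was 92.6 and 93.7 CPM in Ctrl and 97.1 and 108 CPM after KCl.

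The RefSeq window of Hes5, chr4:154960673-154960972 (plus strand, GRCm38.p6), is shown with the RBPJ core letters GTGGGAA, on either strand, in capitals:
Hes5: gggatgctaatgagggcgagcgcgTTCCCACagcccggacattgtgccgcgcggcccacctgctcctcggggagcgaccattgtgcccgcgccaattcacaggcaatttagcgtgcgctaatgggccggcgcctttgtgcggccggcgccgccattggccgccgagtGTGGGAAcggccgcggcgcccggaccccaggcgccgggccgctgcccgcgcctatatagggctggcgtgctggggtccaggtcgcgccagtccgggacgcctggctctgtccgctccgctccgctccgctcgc
It holds 2 cores, starting 226 and 83 bases before the start site, and outside the capitals a CArG box 33 bases before it. The RBPJ core was found in 6.38% of all windows, in 6.29% of those of protein-coding genes tested, in 8.37% of those of genes that fell and in 7.65% of those of genes that rose.

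By the 2-fold rule the receptor and channel lists held no gene that rose, and falls at shares between 0% and 6.9%, beside 3.65% of all genes tested. None of 23 glutamate receptor genes rose and 1, Grm2, fell (57.5 and 64.1 CPM in Ctrl and 22.2 and 33.9 CPM after KCl, -1.11 ± 0.20). Gria1, at 905 and 893 CPM in Ctrl and 1009 and 1165 CPM after KCl, and Gria2, which encode AMPA receptor subunits, had changes of 0.27 ± 0.12 (adjusted p = 0.18) and 0.32 ± 0.12 (0.109). None of 14 GABA receptor genes passed, with Gabbr1 at -0.17 ± 0.19, though 3 were higher and 1 lower at an adjusted p of at most 0.05 below 2-fold. Of 29 voltage-gated potassium channel genes Kcng1 (-1.08 ± 0.19) and Kcnv1 (-1.10 ± 0.23) fell, and of 30 sodium, calcium and HCN channel genes the pacemaker channel Hcn2 fell, from 18.3 and 10.2 CPM to 4.03 and 5.82 CPM. The falls of Grm2 and Kcng1 were under 2-fold without KCl replicate 1 (-0.82 and -0.81), and that of Kcnv1 was under 2-fold without Ctrl replicate 2 or KCl replicate 1. Without Ctrl replicate 2, 1 GABA receptor gene was called higher, and without KCl replicate 2, 2 genes of the sodium, calcium and HCN list were lower.

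In the remaining lists the share that rose was 8.7% for actin, 17.6% for NF-kB and 6.67% for m6A, beside 4.21% of all genes tested, and none fell. Of 23 genes for actin and SRF-linked cytoskeleton, vinculin, Vcl (2.33 ± 0.15), and Tpm4 (1.55 ± 0.16) rose, while Actb, at 2186 and 2172 CPM in Ctrl and 2086 and 2856 CPM after KCl, did not pass (adjusted p = 0.492). In the list of NF-kB and cytokine genes 3 of 17 rose, which were Rel (2.63 ± 0.29), Nfkbid (1.73 ± 0.19) and Nfkbiz (1.58 ± 0.17). Of 15 genes for m6A only the nuclear reader Ythdc1 rose by the 2-fold rule (35.9 and 30.6 CPM in Ctrl and 89.6 and 92.5 CPM after KCl, 1.45 ± 0.14, adjusted p = 0.000504). Below 2-fold, 3 more were higher and 1 was lower at an adjusted p of at most 0.05. Mettl3 was at 18.1 and 17.4 CPM in Ctrl and 15.7 and 13.9 CPM after KCl (-0.26 ± 0.15, adjusted p = 0.291). Without KCl replicate 1, 4 genes of the actin list, 5 of the NF-kB list and 2 of the m6A list rose.

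The list counts were smaller in 1 fit of all 16 libraries, which includes the more variable Mettl3 KO libraries. There 21 immediate early factors, 5 synaptic effectors, 2 secreted peptides, 9 feedback regulators, 5 kinases and arrest factors and 4 stress response genes rose. Of the cholesterol genes 3 rose, of the clock genes 2, of the glycolysis, NF-kB and m6A lists 1 each, and of the heat shock, actin and Notch lists none (Dnajb1 adjusted p = 0.253). No list member fell there other than 1 gene of the Notch list.

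**Figure D3:**
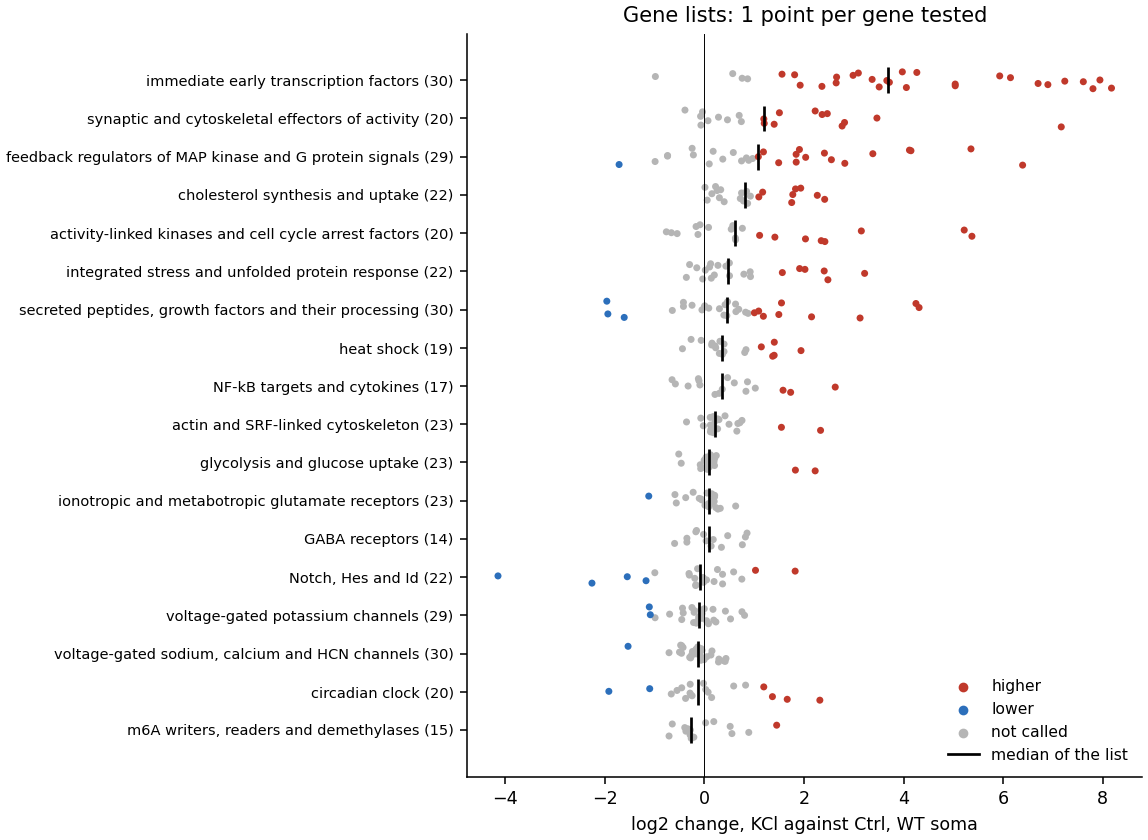
Log2 change in WT soma, KCl against Ctrl, of each tested gene of 18 lists, ordered by list median (black bar), with the number tested in parentheses. The immediate early transcription factors have a median of 3.69, and the receptor and channel lists have medians between -0.13 and 0.09.

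The miRNA locus of Mir212 and Mir132 was among the largest rises. Its mature miRNAs are shown with the seed, bases 2 to 8, in capitals (RefSeq, GRCm38.p6, chr11, plus strand):
mmu-miR-132-3p: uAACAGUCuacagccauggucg
mmu-miR-212-3p: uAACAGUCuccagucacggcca
mmu-miR-132-5p: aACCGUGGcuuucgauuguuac
mmu-miR-212-5p: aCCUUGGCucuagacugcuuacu
The 3p arms share their seed and their first 9 bases, whereas the seeds of the 5p arms differ. Mir212 was at 0.0668 and 0.0832 CPM in Ctrl and 9.21 and 17.5 CPM after KCl and Mir132 at 0.120 and 0.133 CPM in Ctrl and 10.1 and 19.7 CPM after KCl, with log2 changes of 7.46 ± 0.45 and 6.86 ± 0.43 (adjusted p = 4.82e-05 and 5.65e-05). Both lie within the noncoding gene 1700016P03Rik, which went from 0.441 and 0.516 CPM to 31.8 and 54.8 CPM (6.50 ± 0.33). These libraries were made from long RNA, and counts on a hairpin are reads of the transcript around it, not of the mature miRNA, and cannot be told apart from those of the host gene.

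Of 90 miRNA genes tested 15 rose (16.7%) and 2 fell (2.22%), beside 4.21% and 3.65% of all genes tested. Mir335 (4.66 ± 0.32) lies in the imprinted gene Mest, which was at 57.9 and 68.4 CPM in Ctrl and 538 and 645 CPM after KCl and rose by 3.23 ± 0.16. Another 7 of the 15, Mir154, Mir300, Mir370, Mir376b, Mir381, Mir487b and Mir496a, lie in the imprinted region of Meg3 on chromosome 12, with log2 changes between 1.22 and 1.84. Their mature sequences lie between positions 109618270 and 109739186. In the long noncoding RNAs of that region the change was 1.10 ± 0.24 for Mirg (adjusted p = 0.0186), 0.43 ± 0.13 for Rian (0.0645) and 0.21 ± 0.10 for Meg3 (0.24). The imprinted genes Peg10 (3.17 ± 0.29) and Zdbf2 (2.83 ± 0.28), rose as well. These imprinted genes were picked after their values had been seen, and the hairpins of this region are counted within longer transcripts.

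Zinc finger genes were frequent among the falls. Most genes with Zfp symbols encode C2H2 zinc finger proteins, many of which silence transposable elements through a KRAB domain. Of 374 protein-coding genes with the symbol Zfp and a number, 71 fell and 7 rose, which is 19.0% and 1.87%, and the median log2 change was -0.50. For the 15451 other protein-coding genes, histone genes aside, the shares were 2.43% and 3.96% and the median was 0.00054. Zfp273, at 4.43 and 3.86 CPM in Ctrl and 1.06 and 0.511 CPM after KCl, fell by 2.43 ± 0.32, and Zfp85, at 2.66 and 3.16 CPM in Ctrl and 0.732 and 0.316 CPM after KCl, by 2.50 ± 0.36. Zfp184, at 2.04 and 2.15 CPM in Ctrl and 29.7 and 28.4 CPM after KCl, rose by 3.79 ± 0.16. In neurites 58 of 365 of these genes were lower. This family was picked after its values had been seen, its members share sequence so that reads mapping to several genes were counted more than once, and in 1 fit of all 16 libraries 1 member was lower and 4 were higher.

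The other large falls were of mixed kinds. Riox1, a histone demethylase and hydroxylase in an intronless gene, was at 11.4 and 8.89 CPM in Ctrl and 1.35 and 1.61 CPM after KCl, a change of -2.77 ± 0.21 (adjusted p = 0.000151). Smarcd2, a subunit of the SWI/SNF remodeling complex, fell by 2.33 ± 0.17, and Guf1, a mitochondrial GTPase, at 26 and 23.9 CPM in Ctrl and 5.36 and 5.59 CPM after KCl, by 2.19 ± 0.15. Txnip, an inhibitor of thioredoxin and of glucose uptake, was picked after its values had been seen: it was at 31.0 and 41.0 CPM in Ctrl and 8.62 and 5.16 CPM after KCl and fell by 2.39 ± 0.25. The noncoding Gm26792 (-2.89 ± 0.26), Gm45124 (-2.79 ± 0.21), Gm38104 (-2.57 ± 0.30), 4833412K13Rik (-2.56 ± 0.25) and Gm26816 (-2.50 ± 0.27) and the protein-coding Gm49601 (-2.58 ± 0.27) were also among the 10 largest falls of genes averaging 100 counts or more. Each of these 6 overlaps another gene, and since counting ignored strand its reads cannot be told apart from those of its partner where both share exons. Many other named genes also overlap genes in the annotation, with the same limit where both share exons. They include Dusp1, Riox1, Guf1, Zfp85, Zfp273, Hes5, Atf3, Homer1, Bdnf, Dll1, Dbp and Ythdc1, and this list is not complete.

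Noncoding and provisional genes moved in both directions. TEC genes, a class of provisional loci in the annotation, fell more often than they rose: 212 of 1432 fell (14.8%) and 95 rose (6.63%), with a median of -0.47. The direction turned among genes averaging 100 counts or more, where 42 rose and 31 fell in a fit of their own, and in 1 fit of all 16 libraries, where 23 rose and 3 fell. Antisense genes fell in 86 of 1051 cases (8.18%) and rose in 51 (4.85%), while processed pseudogenes rose in 71 of 3292 (2.16%) and fell in 21 (0.638%). Of all genes tested 4.21% rose and 3.65% fell, so both shares of the processed pseudogenes were below those. The split of TEC genes depended on the KCl libraries, with 373 lower and 82 higher without KCl replicate 2 and 219 and 147 without replicate 1, and 126 were lower without Ctrl replicate 1. Some of the noncoding genes that rose overlapped or lay beside protein-coding genes that rose. Of 259 noncoding genes that rose (TEC, lincRNA, antisense, sense intronic and processed transcripts), 59 (22.8%) were within 5 kb of a protein-coding gene that rose, compared with 64 of 3404 (1.88%) of those not called and none of 377 that fell. Of the 59, 42 overlapped such a gene (16.2% of the 259), compared with 43 of those not called (1.26%). Counting ignored strand, so reads of these 42 cannot be told apart from those of the coding gene where both share exons. Gm47088, for example, a TEC gene inside Homer1, was at 0.855 and 0.999 CPM in Ctrl and 43.2 and 51.8 CPM after KCl and rose by 5.68 ± 0.20. Both the classes and the neighbours were looked at after the values had been seen.

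**Figure D4:**
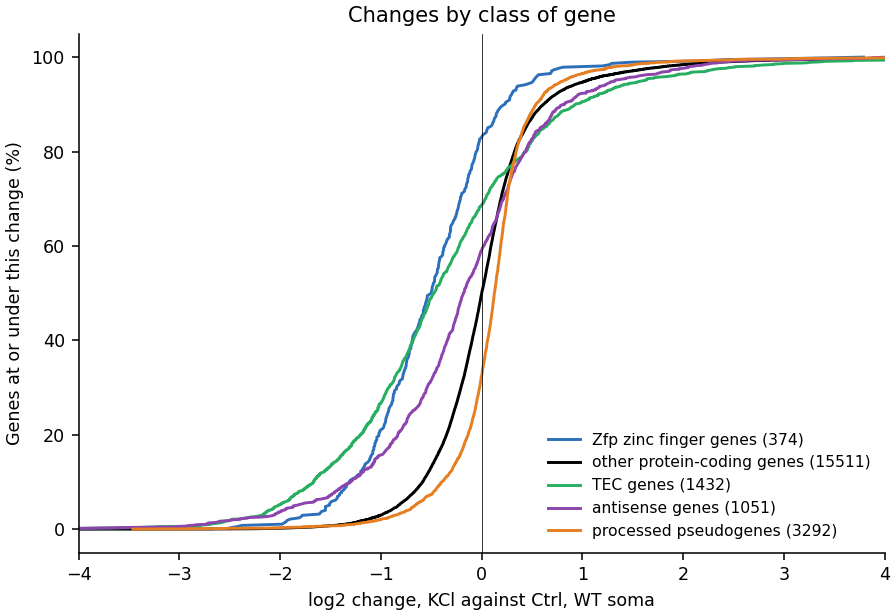
Cumulative share of genes (%) at or under each log2 change in WT soma, KCl against Ctrl, by class. The curves of the 374 Zfp genes (median -0.50) and of the 1432 TEC genes (median -0.47) lie left of that of the other protein-coding genes.

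The called genes had shorter median spans than the rest. At an average of 100 counts or more, the median genomic span of protein-coding genes was 16.1 kb for the 451 that rose, 13.5 kb for the 390 that fell and 27.1 kb for the 11778 not called. For the 33 that rose at least 16-fold it was 7.36 kb. Spans under 10 kb made up 35.5%, 41.3%, 22.1% and 57.6% of the same sets. The median exonic length differed less, at 4.54, 3.99, 4.69 and 3.31 kb.

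Neurites of the same inserts gave 4 further libraries, which the soma fit did not use. There 572 of 22059 genes tested rose (2.59%) and 279 fell (1.26%). Of the 918 genes that rose in soma and were tested in neurites, 498 (54.2%) rose there too and 898 had a positive change, and of the 765 that fell, 202 (26.4%) fell there and 744 had a negative change. No gene was called in opposite directions. Fos changed by 6.60 ± 0.14 in neurites, Npas4 by 7.03 ± 0.16, Arc by 6.69 ± 0.24, Gadd45g by 4.91 ± 0.11 and Hes5 by -4.38 ± 0.52. Among genes averaging 100 counts or more, 425 of the 593 that rose and 381 of the 476 that fell had a smaller change in neurites than in soma. These genes had been chosen for their change in soma, so the count is a description.

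**Figure D5:**
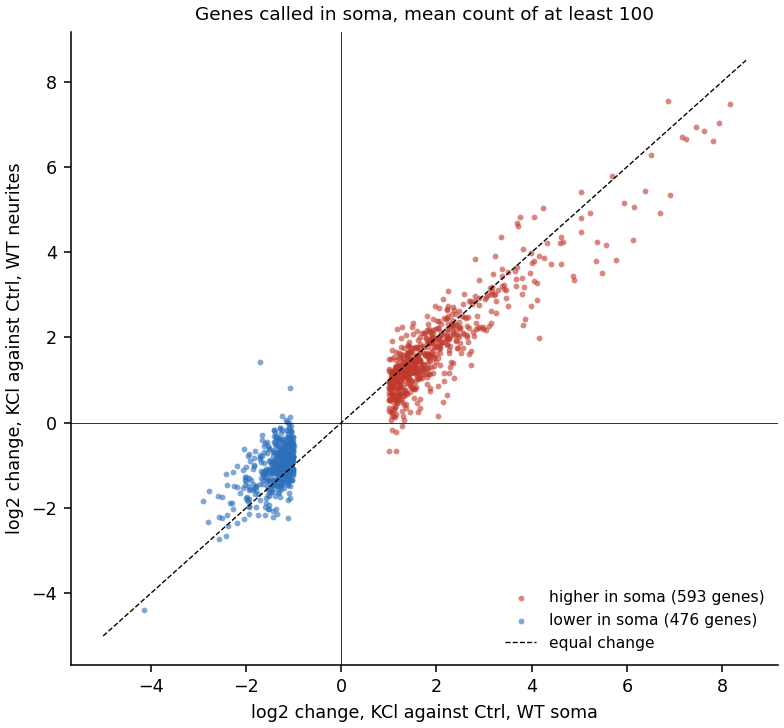
Log2 change after KCl in WT neurites over that in WT soma for the 593 higher and 476 lower genes that averaged 100 counts or more in soma. Of these, 588 and 469 changed in the same direction in neurites, and the dashed line marks equal change.

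The difference itself was tested in 1 fit. With 1 term per insert in the 8 WT libraries, 0 of 23200 genes (a share of 0% in either direction) had a response that differed at least 2-fold between soma and neurites at an adjusted p of at most 0.05. At an unadjusted p of at most 0.05 and a difference of at least 2-fold, the signed log2 change was higher in soma for 186 genes and in neurites for 250. For a gene that fell, the higher log2 change is the smaller fall. The smallest adjusted p was 0.203. The count depended on the settings: DESeq2 called the log2 change higher in soma for 12 genes and in neurites for 3. With no filter on low counts, edgeR called 19 and 34. The same test called 4 and 144 without soma KCl replicate 2, and 4 and 121 without neurite KCl replicate 2. Egr2, with 6.70 ± 0.22 in soma and 4.91 ± 0.16 in neurites, had a difference of 1.75 ± 0.19 (adjusted p = 0.203), and Atf3, with 6.90 ± 0.16 and 5.35 ± 0.21, one of 1.55 ± 0.25 (0.939). Which insert a neurite library shares with a soma library was taken from the replicate number.

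In soma of Mettl3 KO neurons most of these genes changed in the same direction. Of the 957 risen genes tested there 914 had a positive change and of the 851 fallen genes 784 a negative one. Over all genes tested in soma of both genotypes, the median log2 change in KO was 0.0141. Fos went from 41.7 and 68.9 CPM to 1409 and 4790.4 CPM, and Npas4 from 13.2 and 13.7 CPM to 795 and 2402 CPM. The log2 changes were 5.81 for Fos, 6.89 for Npas4, 6.36 for Arc and -2.13 for Hes5. The KO libraries spread more, with a biological coefficient of variation of 0.491 against 0.148 in WT soma, and the difference between genotypes was not tested here.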

How the data were processed

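Soma and neurites of cultured mouse hippocampal neurons were profiled by RNA-seq (NEBNext low-input kit, paired-end reads), and the 4 WT soma libraries, KCl and Ctrl, are compared here. The authors aligned reads with STAR 2.7.7a to mm10 and deposited raw counts per gene from featureCounts 2.0.1 with Ensembl 97. Per the file headers, reads mapping to several places were counted and strand was not used, so values of near-identical, overlapping and antisense genes are uncertain. The table gave 0 counts for 37 mitochondrially encoded genes, which were left out. The deposited tables of the authors' own soma and neurite comparisons and the files of m6A sites were not used.

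Genes averaging 10 counts or more over the fitted libraries were tested, two-sided, with the quasi-likelihood test of edgeR 4.0.16 after TMM scaling. P-values were adjusted over all genes tested (Benjamini-Hochberg), and genes were called at 2-fold or more and an adjusted p of at most 0.05. CPM are counts scaled to a common TMM library size, and SE is the log2 change divided by the root of F. Neurites were fitted alike, and the difference between fractions as an interaction with 1 term per insert. The fit was tested on simulated data: 200 of 200 genes averaging 100 counts or more and changed 4-fold, among 24060, were called, with 6 false calls. The simulation did not cover smaller changes or changed genes with lower counts, and held no difference between litters. Total counts were 71394235 and 56990252 in Ctrl and 54397025 and 70313406 after KCl. Control and KCl duplicates share a litter per the study's methods, so the replicate number was tried as a block, although differences between replicates correlated with r = 0.0676 over 15406 genes. Other alternatives were DESeq2 1.42.0, RLE scaling, filters, more libraries in the fit and leaving out each library.

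The genes named were the genes the study singles out (Fos, Npas4, Arc, Gadd45g), the 10 largest rises and falls among genes averaging 100 counts or more with no overlap between groups, the 5 smallest p in each direction, up to 4 called members per direction and the 2 most abundant uncalled members of each of 18 gene lists, and the called and 2 most abundant members of 6 marker lists. Members, lists and tests were chosen with earlier results of these data known, and further members of the lists and all family classes were chosen after their values were seen. Places and classes of genes are from GENCODE M21 (Ensembl 96), which matched 55480 of 55573 genes, and sequences are from RefSeq. Some members of the lists are not reported by name here.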

Additional observations from a re-analysis of the deposited data

How the results depend on the processing

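In WT soma, the genes higher and lower after KCl numbered 320 and 21 with all 16 libraries in 1 fit, where 93.8% of calls were higher against 53.6% in the fit of 4 libraries. They numbered 568 and 428 at a mean count of at least 100, and 1616 genes were lower at 1.5-fold. DESeq2 gave 953 and 740. Leaving out 1 library gave 956 to 1479 higher and 673 to 1495 lower genes, with the highest count of falls without KCl replicate 2 and of rises without KCl replicate 1. With the replicate number as a block, paired by litter, 1169 genes were higher and 1100 lower, including 1007 of the 1014 and 874 of the 877. In WT neurites, 893 and 511 genes were called with no filter on low counts, 240 and 23 with 16 libraries, 519 and 209 with the replicate block, and 326 to 1031 and 49 to 502 without 1 library, the lowest without neurite KCl replicate 2 and the highest without neurite Ctrl replicate 1. For the difference between fractions, DESeq2 called the signed log2 change higher in soma for 12 genes and in neurites for 3, and no filter gave 19 and 34. Without the block for pairing it gave 0 and 0. Leaving out 1 library gave 0 to 4 and 0 to 144, the latter without soma KCl replicate 2. The cause of these shifts was not tested.

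Of 1393 recomputed values of 127 named genes, 1329 kept their direction and side of the threshold, 50 fell below it (38 of them with 16 libraries), 5 rose above it and 9 changed sign. Those 9 were of genes not called. With 16 libraries the log2 change was 0.000117 for Nptx1 and 0.0343 for Tubb3. Without 1 library, values ran from -0.705 to 0.393 for Nptx1 (0.0421 without Ctrl replicate 2), from -0.076 to 0.186 for Aldoa, from -0.499 to 0.119 for Gabbr1, from -0.704 to 0.0182 for Hopx, from -0.0979 to 0.266 for Kcna1 and from -0.0609 to 0.409 for Actb, the ends of each range being without KCl replicate 1 or 2. No glutamate receptor or potassium channel gene was called lower without KCl replicate 1. With duplicates, a gene not called is not shown to be unchanged.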
